A study of Mus musculus with 2 samples.

Results

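The glycolytic enzyme isoforms described here are 10 genes of the breakdown of glucose to lactate: Hk1, Aldoa, Aldoc, Tpi1, Pgk1, Eno1, Eno2, Pkm, Ldha and Ldhb. They were taken by name from a filtered single-cell count matrix of 15474 genes, and all 10 were among its rows. The isoform pairs Aldoa and Aldoc, Eno1 and Eno2, and Ldha and Ldhb were compared between neurons and glia in each of 2 libraries.

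Single cells of the dentate gyrus, the part of the hippocampus in which granule neurons are born, were isolated from C57BL/6J mice aged 4 to 5 weeks. The study asked whether fixation in methanol (MeOH) keeps the transcriptomes of such cells. The fresh library was 1 plate of cells pooled from 3 mice and sorted directly after dissociation. The MeOH-fixed library was 1 plate of cells pooled from 4 mice, fixed in chilled MeOH, stored frozen for 3 weeks and rehydrated. All cells of both libraries were dissociated in the same way and kept in trehalose, and a dead cell stain was used only while the fresh cells were sorted. Each condition was thus 1 pooled library with no replicate, so that no test was made: intervals are exact, at 95%, and cover counting error only, and every difference between the libraries cannot be told apart from a difference between plates, pools or sorts.

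Hexokinase, the product of Hk1 in most brain cells, commits glucose to the pathway by adding phosphate, and aldolase (Aldoa, Aldoc) later splits the phosphorylated sugar into triose phosphates, which triose phosphate isomerase (Tpi1) interconverts. Phosphoglycerate kinase (Pgk1) and pyruvate kinase (Pkm) return ATP, enolase (Eno1, Eno2) makes the substrate of pyruvate kinase, and lactate dehydrogenase (Ldha, Ldhb) interconverts pyruvate and lactate. In the brain, aldolase C is known as an astrocyte protein, the enolase encoded by Eno2 is the classical neuron-specific enolase, and the A and B chains of lactate dehydrogenase are associated with lactate production and lactate use, respectively.

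The filtered cells numbered 64 in the fresh library and 132 in the MeOH-fixed library, with 534122 and 729018 unique molecular identifiers (UMIs, each marking 1 captured transcript). A level is given as CPM, counts per 1000000, the UMIs of a gene scaled to 1000000 UMIs of the same group of cells. Because the method tags each transcript once at its 3′ end, levels of different genes were set side by side as molecules, with no division by length. Neurons were the immature and mature neurons of the authors' annotation (7 fresh and 44 MeOH-fixed cells), and glia were the astrocytes and radial glia-like cells (RGLs), oligodendrocyte precursor cells (OPCs), oligodendrocytes and microglia (35 and 59 cells). Neuronal intermediate progenitors (nIPCs) with neuroblasts, and endothelial cells, were kept apart. These identities were drawn from the same counts, and Aldoc was among the genes that marked the astrocyte and RGL cluster, so that differences between identities are descriptions.

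The identities were held against marker lists that contained none of the 10 genes. In the MeOH-fixed library all 8 lists had their highest summed level in the identity they mark. In the fresh library 6 did. The 2 fresh cells labelled mature neurons had 0 UMIs of Snap25, Syt1, Rbfox3 and Prox1 among 12246 UMIs, whereas the 5 fresh immature neurons had 321 UMIs of these neuronal genes. The fresh neuronal values therefore rest on the immature neurons, and of these on 3 cells of 28791 to 31563 UMIs, since the other two held 3520 and 971. Each of the lists for red blood cells, choroid plexus and ependyma, and pericytes had at most 16 UMIs in the neurons or the glia of either library, although only 1 gene each of the red blood cell and choroid plexus lists was in the counts. The interneuron list of Gad1 and Gad2 had 12 UMIs in fresh and 92 in MeOH-fixed neurons. All 92 were of Gad1, as Gad2 was not detected in MeOH-fixed neurons, while both were detected in fresh neurons. The part of interneurons in the neuronal values was not tested.

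All positions below are those of GENCODE vM21 on GRCm38, the build to which the reads were mapped. Aldoa lies on the reverse strand at chr7:126795234-126800751, with a second annotated Aldoa locus adjoining it at chr7:126800790-126809108, and both overlap Fam57b on the other strand. Aldoc lies on the forward strand at chr11:78322968-78327781 and overlaps no annotated gene. Ldha (chr7:46841475-46855627, forward) and Ldhb (chr6:142490249-142507957, reverse) overlap none either. The promoter windows of both pairs are shown because these pairs differed between neurons and glia. Each is the 250 bases before a RefSeq transcription start on GRCm38.p6, 5′ to 3′ on the gene's strand, and where a gene has several starts the window with the most matches of ACGTG, or the first listed, is shown. Capitals mark ACGTG on either strand (CACGT on the other strand, so that a CACGTG holds overlapping matches). ACGTG is 1 form of the core of the element to which hypoxia-inducible factors are known to bind. The other form, GCGTG, was not searched for.
Aldoa, chr7:126799255-126799504, reverse strand: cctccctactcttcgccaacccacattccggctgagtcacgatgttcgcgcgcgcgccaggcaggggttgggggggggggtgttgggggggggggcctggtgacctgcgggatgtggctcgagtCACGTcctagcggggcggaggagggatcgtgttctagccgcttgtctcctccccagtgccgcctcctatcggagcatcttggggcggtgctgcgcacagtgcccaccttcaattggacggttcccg
Aldoc, chr11:78322823-78323072, forward strand: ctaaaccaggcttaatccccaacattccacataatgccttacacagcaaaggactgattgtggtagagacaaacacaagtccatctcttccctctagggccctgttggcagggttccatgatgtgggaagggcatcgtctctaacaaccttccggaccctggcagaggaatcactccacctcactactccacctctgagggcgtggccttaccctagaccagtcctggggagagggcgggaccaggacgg
Ldha, chr7:46845554-46845803, forward strand: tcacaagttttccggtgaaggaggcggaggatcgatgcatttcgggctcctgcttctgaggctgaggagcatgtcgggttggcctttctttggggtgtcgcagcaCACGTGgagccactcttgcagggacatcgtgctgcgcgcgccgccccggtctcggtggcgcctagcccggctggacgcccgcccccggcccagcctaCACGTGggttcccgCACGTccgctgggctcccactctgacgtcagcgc
Ldhb, chr6:142507958-142508207, reverse strand: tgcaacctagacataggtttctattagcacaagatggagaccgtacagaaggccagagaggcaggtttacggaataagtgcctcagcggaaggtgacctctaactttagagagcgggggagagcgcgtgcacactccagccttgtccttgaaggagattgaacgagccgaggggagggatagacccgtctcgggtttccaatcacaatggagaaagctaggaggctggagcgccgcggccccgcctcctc
The Ldha window held ACGTG at 3 places and the Aldoa window at 1, and neither the Aldoc nor the Ldhb window held it. Of the 18 windows of the 10 genes 5 had it, in 4 genes (Aldoa, Pgk1, Pkm and Ldha), 2 of the 5 being overlapping windows of Aldoa. Of 32851 such windows over all annotated mouse genes 16.6% had it. The Aldoc and Ldhb windows shown do hold GCGTG, which was neither marked nor counted. These are matches of letters, and no binding was measured here.

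Aldolase separated neurons from glia more widely than any other of the pairs. Aldoa, the ubiquitous aldolase, was measured at 169 UMIs in fresh neurons and 98 in fresh glia, or 1560 CPM (1334 to 1814) against 425 CPM (345 to 518). Among MeOH-fixed cells it stood at 577 UMIs in neurons and 112 in glia, or 1489 CPM (1370 to 1615) against 481 CPM (396 to 579). Neurons were thus the higher class in both libraries, by 3.67-fold (2.85 to 4.76) in fresh and 3.09-fold (2.52 to 3.82) in MeOH-fixed cells. The 5 fresh immature neurons held 81, 44, 39, 5 and 0 Aldoa UMIs, the shallowest cell being the one at 0.

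Aldoc ran the other way. Fresh neurons had 5 Aldoc UMIs and fresh glia 838, which is 46.1 CPM (15.0 to 107.7) against 3633 CPM (3392 to 3888). MeOH-fixed neurons had 21 and glia 559, which is 54.2 CPM (33.5 to 82.8) against 2402 CPM (2207 to 2609). The glial level was 78.7-fold the neuronal level (33.6 to 243) in fresh cells and 44.3-fold (28.7 to 72.2) in MeOH-fixed cells, the widest difference of any of the 10 genes in either library. Nearly all glial Aldoc came from astrocytes and RGLs, with 818 of 838 fresh and 529 of 559 MeOH-fixed UMIs, and their level was 7465 CPM in fresh and 6553 CPM in MeOH-fixed cells.

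**Figure D1:**
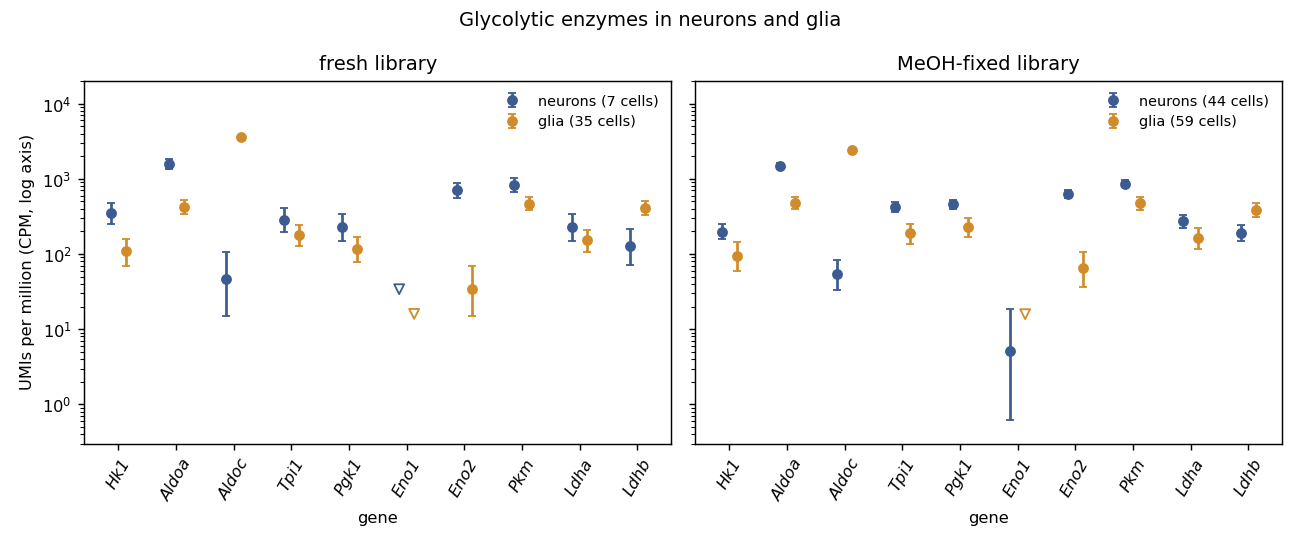
Level of each of the 10 genes in CPM (log axis) in neurons (blue) and glia (orange) of the fresh (left) and MeOH-fixed (right) library, with exact Poisson intervals as bars and open triangles at the upper limit where no UMI was counted. In both libraries Aldoc and Ldhb are higher in glia, Aldoa, Hk1 and Eno2 are higher in neurons, and Eno1 is at or near 0.

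As a share of the aldolase UMIs, Aldoc made up 2.87% (0.939 to 6.58, Clopper-Pearson) in fresh neurons and 89.5% in fresh glia. Among MeOH-fixed cells it made up 3.51% (2.19 to 5.32) and 83.3%. The difference between the classes was −86.7 percentage points in fresh and −79.8 in MeOH-fixed cells. Cell by cell, all 18 fresh astrocytes and RGLs had more Aldoc than Aldoa UMIs, as did 28 of the 29 MeOH-fixed ones, the remaining cell having neither. All 25 MeOH-fixed immature neurons had more Aldoa, and so had 4 of the 5 fresh ones. Among the 19 MeOH-fixed mature neurons 14 had more Aldoa, 3 had more Aldoc and 2 had neither. Of the 2 fresh cells labelled mature neurons 1 had more Aldoc and 1 had neither.

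The other glia did not share the astrocyte level. Aldoc made up 63.6% (40.7 to 82.8) of 22 aldolase UMIs in fresh OPCs and 57.7% (36.9 to 76.6) of 26 in MeOH-fixed OPCs. A single cell gave 10 of the 14 fresh Aldoc UMIs of OPCs, and another 7 of the 15 MeOH-fixed ones. More Aldoc than Aldoa was counted in 2 of 5 fresh and 4 of 10 MeOH-fixed OPCs, and more Aldoa in 2 and 3. In microglia the Aldoc share was 28.6% (11.3 to 52.2) of 21 UMIs and 42.9% (9.90 to 81.6) of 7 UMIs. In MeOH-fixed oligodendrocytes, the myelinating cells, it was 21.8% (11.8 to 35.0) of 55 UMIs, and the 2 fresh oligodendrocytes had 0 of 6. The glial share is therefore that of the astrocytes and RGLs: averaged over the glial identities with equal weight, the difference between neurons and glia was −43.2 percentage points in fresh and −49.8 in MeOH-fixed cells.

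**Figure D2:**
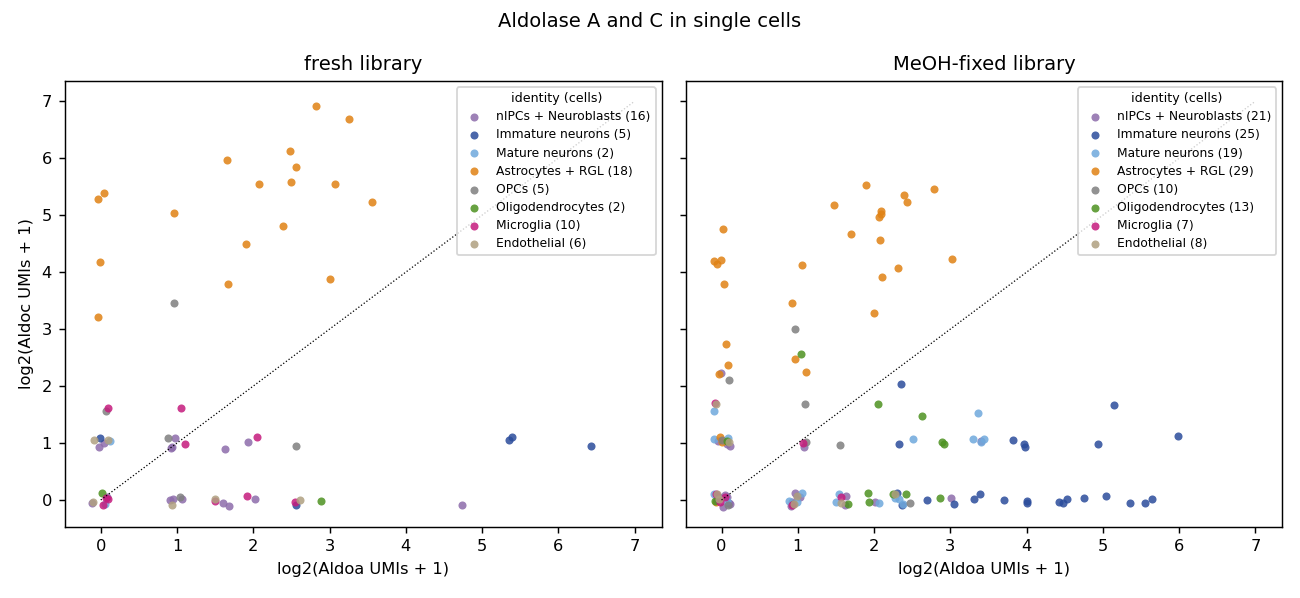
Aldoc against Aldoa in every filtered cell of the fresh (left) and MeOH-fixed (right) library, as log2(UMIs + 1) with a small random offset so that cells do not cover each other. Points are coloured by identity, the dotted line marks equal counts, and the astrocytes and RGLs (orange) lie above it while the immature neurons (dark blue) run along the Aldoa axis.

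The few Aldoc UMIs of neurons were set beside the astrocyte markers in the same cells. Fresh neurons had 5 Aldoc UMIs beside 23 UMIs of 9 astrocyte markers, so that Aldoc was 17.9% (6.06 to 36.9) of both together, and in fresh astrocytes and RGLs it was 25.7% (24.1 to 27.2). MeOH-fixed neurons had 21 beside 138, or 13.2% (8.37 to 19.5), where their astrocytes and RGLs had 22.1% (20.5 to 23.8). Astrocyte markers were thus counted in neuronal cells at a low level, and their part in the neuronal Aldoc was not tested.

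Enolase could be measured on the Eno2 side only. Eno2 (chr6:124760053-124769673, reverse) had 76 UMIs in fresh neurons and 8 in fresh glia, or 701 CPM (553 to 878) against 34.7 CPM (15.0 to 68.3). MeOH-fixed cells had 244 and 15, or 630 CPM (553 to 714) against 64.4 CPM (36.1 to 106). The neuronal level was 20.2-fold the glial level (9.76 to 48.5) in fresh and 9.77-fold (5.81 to 17.7) in MeOH-fixed cells, and Eno2 was detected in 37 of 44 MeOH-fixed neurons against 11 of 59 glia. Immature and MeOH-fixed mature neurons had like levels, 653 and 548 CPM, whose intervals overlapped, while nIPCs and neuroblasts had 45.5 CPM in the fresh and 79.5 CPM in the MeOH-fixed library.

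Eno1, the widely expressed enolase, had 0 UMIs in all 64 fresh cells and 2 in the 132 MeOH-fixed cells, 1 in an immature and 1 in a mature neuron. A count of 0 allows up to 27.7 CPM in fresh neurons and 13.0 CPM in fresh glia, taking 3 counts as the limit, and no ratio of Eno1 to Eno2 was drawn. Of the 1401 different runs of 60 bases, the read length, in the last 500 bases of the coding transcripts of Eno1 (chr4:150236721-150248879, forward), 66.2% also occur in transcripts of 6 other annotated genes. The same share was 23.9% for Ldhb, 12.8% for Pkm, 8.48% for Ldha, 6.58% for Tpi1, 5.22% for Pgk1 and 4.70% for Aldoa, and 0 runs were shared for Hk1, Aldoc and Eno2. All 928 shared runs of Eno1 occur in Eno1b. Gapdh, with 61.1% of its runs shared with 145 other genes, was counted at 960 CPM in fresh neurons. Reads that fitted several places equally well had been discarded, and the part of this in the absence of Eno1 or the level of Gapdh was not tested.

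Lactate dehydrogenase showed a milder split. Ldhb had 14 UMIs in fresh neurons and 95 in fresh glia, or 129 CPM (70.6 to 217) against 412 CPM (333 to 504). In MeOH-fixed cells it had 74 and 90 UMIs, or 191 CPM (150 to 240) against 387 CPM (311 to 475). Glia were higher in both libraries, by 3.19-fold (1.81 to 6.05) and 2.03-fold (1.47 to 2.79). For Ldha the neuronal and glial levels were 231 CPM (149 to 341) and 152 CPM (106 to 211) in fresh cells, a log2 ratio of 0.60 (−0.20 to 1.39) that counting error does not separate from 0.

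MeOH-fixed neurons had 271 CPM of Ldha (222 to 328) against 163 CPM (116 to 224) in glia, a log2 ratio of 0.73 (0.18 to 1.31). The Ldha ratio depended on the cells taken: against astrocytes and RGLs alone it was 0.08 in fresh and −0.07 in MeOH-fixed cells. Ldhb made up 35.9% (21.2 to 52.8) of the lactate dehydrogenase UMIs in fresh neurons against 73.1% in glia, and 41.3% (34.0 to 48.9) against 70.3% in the MeOH-fixed library. In astrocytes and RGLs the share was 73.6% (63.3 to 82.3) and 75.0% (64.9 to 83.4). Of the 25 MeOH-fixed immature neurons, 19 had UMIs of both chains, where 8 had UMIs of both aldolases. Over all 25 cells Ldha had more UMIs in 10, Ldhb had more in 10, the counts were equal in 3, and 2 had neither.

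Microglia were the other identity with much Ldhb, at 496 CPM in fresh and 408 CPM in MeOH-fixed cells, next to 611 and 855 CPM in astrocytes and RGLs, and the intervals of these neighbours overlapped in both libraries. Fresh endothelial cells had the highest Ldha level of the fresh identities, 618 CPM from 12 UMIs in 5 of 6 cells, beside 1 UMI of Ldhb. Their interval overlapped that of the immature neurons, at 260 CPM, and MeOH-fixed endothelial cells had 146 CPM from 3 UMIs. The 3 pericyte markers stood at 61 UMIs or 3144 CPM in fresh and 95 UMIs or 4616 CPM in MeOH-fixed endothelial cells, and their part in the endothelial levels was not tested.

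**Figure D3:**
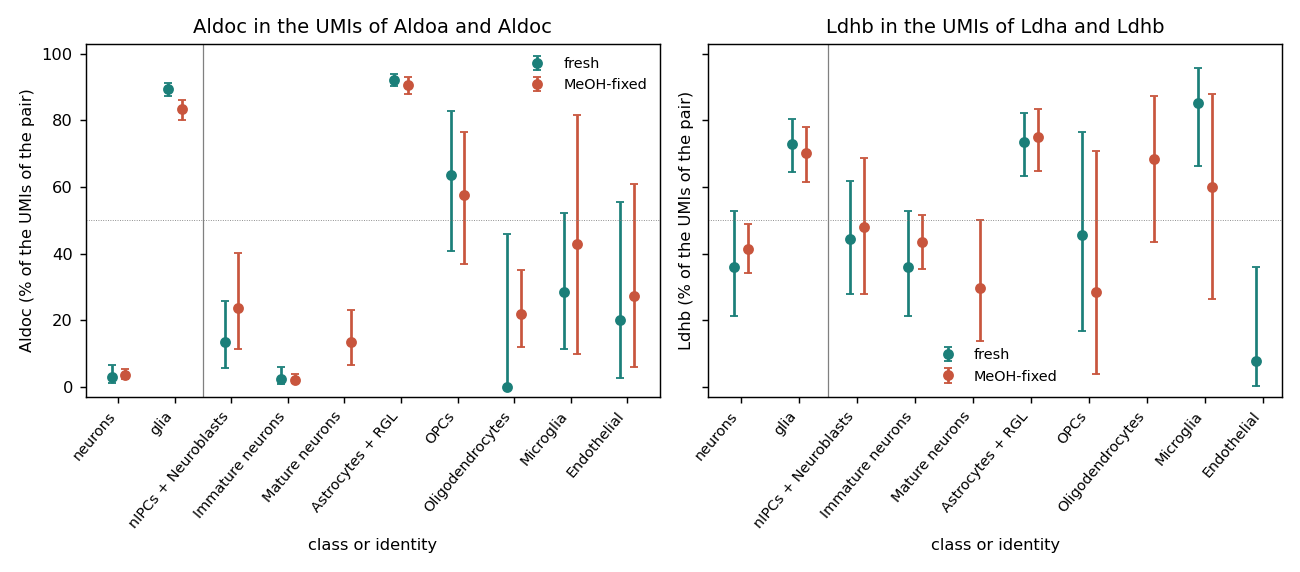
Share of Aldoc in the UMIs of Aldoa and Aldoc (left) and of Ldhb in those of Ldha and Ldhb (right), in percent, for neurons, glia and each identity of the fresh (green) and MeOH-fixed (red) library, where the pair had at least 5 UMIs. Bars are Clopper-Pearson intervals, and astrocytes and RGLs lie near 90% for Aldoc and near 74% for Ldhb in both libraries.

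The enzymes without a partner in this set had higher values in neurons than in glia, by less than Aldoa and Eno2. Hk1 (chr10:62268855-62379908, reverse, overlapping Hk1os on the other strand) had 38 UMIs in fresh neurons and 25 in glia, or 351 against 108 CPM, a log2 ratio of 1.69 (0.93 to 2.48). In MeOH-fixed cells it had 77 and 22, or 199 against 94.5 CPM, a log2 ratio of 1.07 (0.37 to 1.83). Taking astrocytes and RGLs alone as glia brought these to 0.80 and 0.42, both under 2-fold.

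Tpi1 and Pgk1 lay near the 2-fold line. Tpi1 (chr6:124810586-124814296, reverse, overlapping Spsb2 on the other strand) had 31 UMIs in fresh neurons and 41 in glia, and 166 and 44 in MeOH-fixed cells, with log2 ratios of 0.69 (−0.04 to 1.40) and 1.18 (0.69 to 1.69). The fresh interval reached 0. Pgk1 (chrX:106187100-106203699, forward) had 25 and 27 UMIs in the fresh and 177 and 53 in the MeOH-fixed library, with log2 ratios of 0.98 (0.13 to 1.82) and 1.00 (0.55 to 1.48). These are 1.97-fold and 2.01-fold, on either side of the line. In the MeOH-fixed library the higher neuronal levels of Tpi1 and Pgk1 were those of immature neurons. Mature neurons had 175 CPM of Tpi1 (97.9 to 289) against 189 CPM in glia (137 to 254). For Pgk1 they had 81.7 CPM (32.8 to 168) against 228 CPM (171 to 298). Hk1 and Pkm had higher values in mature neurons than in glia, with intervals that overlapped.

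Pkm (chr9:59656368-59679375, forward, overlapping Gm49759 on the same strand), the last step to pyruvate, was detected in 53 of 64 fresh and 98 of 132 MeOH-fixed cells, more cells than any other of the 10 genes. It had 89 UMIs in fresh neurons and 108 in glia, or 821 against 468 CPM, and 335 and 110 in MeOH-fixed cells, or 864 against 473 CPM. The log2 ratios were 0.81 (0.39 to 1.23) and 0.87 (0.56 to 1.20). Its splice forms, which share their 3′ end, were not told apart.

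Summed over the 10 genes, neurons and glia did not differ in 1 direction. The sum was 4356 CPM (3972 to 4768) in fresh neurons and 5528 CPM (5229 to 5840) in fresh glia, and 4587 CPM (4377 to 4806) against 4481 CPM (4213 to 4761) in the MeOH-fixed library. Without Aldoc it was 4310 against 1895 CPM in fresh cells and 4533 against 2079 CPM in MeOH-fixed cells. With Aldoc left out, neurons were thus the higher class in both libraries, and leaving out the gene with the widest glial excess favours this direction. MeOH-fixed mature neurons then had 2637 CPM (2304 to 3004). This lay above glia as a class but below the 3382 CPM (2993 to 3808) of MeOH-fixed astrocytes and RGLs.

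A gene was called between neurons and glia when its levels differed by 2-fold or more and it had at least 50 UMIs over both classes of a library, which 9 of the 10 genes had in each library. In the fresh library 3 were higher in neurons (Hk1, Aldoa and Eno2), where 26.4% of the 1046 genes with the minimum were, and 2 were lower (Aldoc and Ldhb), where 28.0% were. In the MeOH-fixed library 5 were higher (Hk1, Aldoa, Tpi1, Pgk1 and Eno2) against 35.7% of 2558 genes, and the same 2 were lower against 14.9%. The MeOH-fixed genes called higher numbered 2 with every cell at the same weight, 2 against astrocytes and RGLs only and 3 with nIPCs and neuroblasts counted as neurons, and 1 was called lower with immature neurons only. In the fresh library 1 was called higher without the richest cell of each class. These counts at other settings are not set beside the shares of all genes at those settings. They are therefore not read as results about the 10 genes. The median log2 ratio was 0.81 over the 9 genes and 0.01 over all genes with the minimum in fresh cells. In MeOH-fixed cells it was 1.00 over the 9 and 0.56 over all. Neurons there held 387577 UMIs and glia 232771, and the part of this and of the minimum in the 0.56 was not tested. Large differences between the classes were thus common among all genes. Without the 2 fresh cells labelled mature neurons, the fresh log2 ratios of neurons over glia were 1.87 for Hk1, 2.05 for Aldoa, −6.45 for Aldoc, 4.51 for Eno2 and −1.50 for Ldhb, and that of Pgk1 passed 2-fold at 1.15.

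Within the neuronal lineage, immature neurons had higher levels than the progenitors for most of the genes. The log2 ratio of immature neurons over nIPCs and neuroblasts for Aldoa was 2.78 (2.30 to 3.29) in fresh and 2.37 (1.83 to 2.96) in MeOH-fixed cells, and that of Eno2 was 4.12 (3.07 to 5.38) and 3.04 (1.97 to 4.37). For Pkm it was 1.33 (0.85 to 1.82) and 0.85 (0.40 to 1.34), and for Tpi1 1.83 (0.91 to 2.79) and 0.94 (0.30 to 1.64). The intervals of Hk1, Pgk1 and Ldha also lay above 0 in both libraries, and those of Ldhb (0.68 and 0.68) did not. Aldoc was at 41.6 CPM in immature neurons and 39.8 CPM in progenitors of the fresh library, from 4 and 7 UMIs. In the MeOH-fixed library it was at 36.4 against 102 CPM, from 11 and 9 UMIs, a log2 ratio of −1.49 (−2.90 to −0.04). Progenitors and immature neurons differed in depth as well, with medians of 11468.5 and 28791 UMIs per cell in the fresh and 3873 and 11563 in the MeOH-fixed library, and the part of depth was not tested.

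From immature to mature neurons, which only the MeOH-fixed library allows, the levels differed the other way for most genes. Pgk1 had 563 CPM in 25 immature and 81.7 CPM in 19 mature neurons, a log2 ratio of immature over mature of 2.79 (1.71 to 4.12). The ratio was 1.52 (0.75 to 2.39) for Tpi1, 1.23 (0.17 to 2.50) for Ldhb, 1.16 (0.79 to 1.56) for Aldoa and 0.69 (0.26 to 1.16) for Pkm. Eno2 (0.25, −0.21 to 0.74), Hk1 (0.35, −0.50 to 1.30) and Ldha (0.36, −0.37 to 1.16) were not separated by counting error. Aldoc was lower in immature neurons, at −1.68 (−3.05 to −0.29), from 11 and 10 UMIs. The 9 astrocyte markers stood at 268 CPM in the immature and 665 CPM in the mature neurons, and the median depth was 11563 against 2554 UMIs, values whose part in these ratios was not tested.

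**Figure D4:**
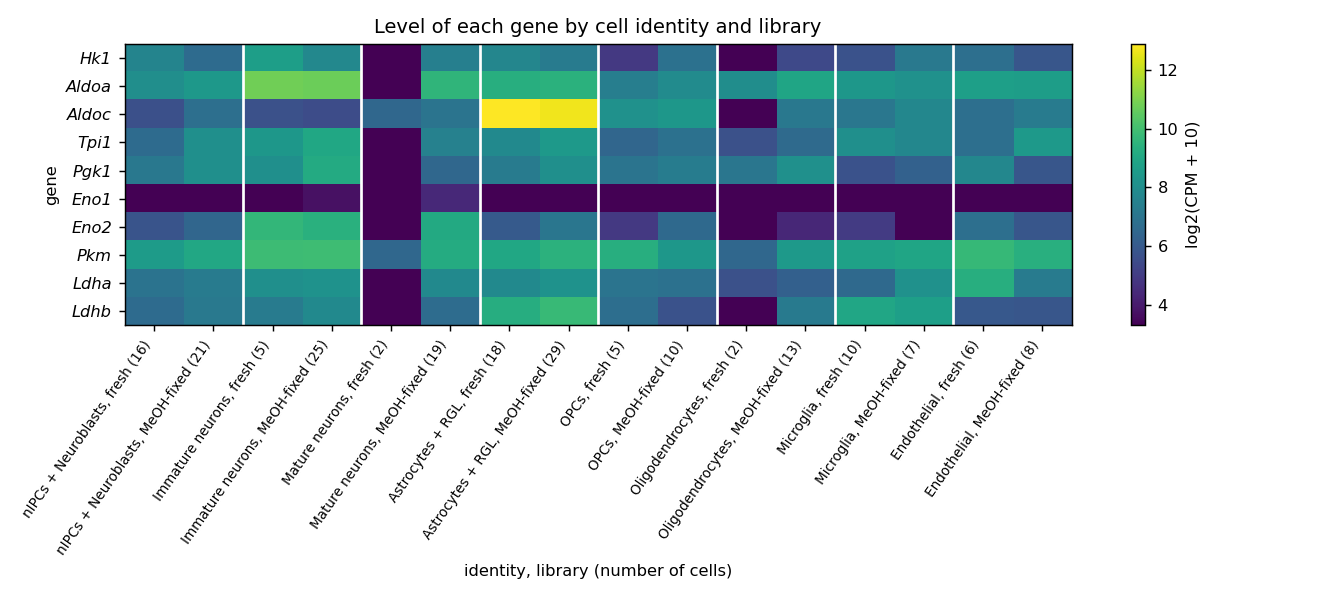
Level of each gene as log2(CPM + 10) (colour) in each identity, fresh and MeOH-fixed columns side by side, with the number of cells in parentheses. Aldoc is brightest in astrocytes and RGLs, Aldoa and Eno2 in immature neurons, the Eno1 row is dark throughout, and the 2 fresh cells labelled mature neurons are dark for 8 of the 10 genes.

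By order of level, immature neurons came first for Hk1, Aldoa, Tpi1, Pgk1, Eno2 and Pkm in both libraries, and astrocytes and RGLs came first for Aldoc and Ldhb in both. First and second place had intervals that did not overlap for Aldoa and Aldoc in both libraries, for Eno2 in the fresh and for Pgk1 in the MeOH-fixed library. For the others the first place was not separated from the next. In the MeOH-fixed library the sum of the 10 genes was 1480 CPM (1151 to 1873) in OPCs and 1565 (1319 to 1845) in oligodendrocytes. It was 1847 (1307 to 2535) in endothelial cells and 1930 (1651 to 2243) in nIPCs and neuroblasts. These intervals overlapped, so that the sums were not put in order. Astrocytes and RGLs had 9935 CPM and immature neurons 5108. In the fresh library the sum was 1508 CPM in OPCs, 1320 in nIPCs and neuroblasts and 535 in the 2 oligodendrocytes.

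Over all cells, 4 genes stood about 2-fold apart between the libraries, whose mix of cells also differed: neurons gave 20.3% of all UMIs in the fresh library and 53.2% in the MeOH-fixed one. Eno2 had 94 UMIs in the fresh and 267 in the MeOH-fixed library, or 176 against 366 CPM, a 2.08-fold higher level (1.64 to 2.66) in MeOH-fixed cells. Pgk1 had 79 and 254, or 148 against 348 CPM, 2.36-fold higher (1.82 to 3.07). Tpi1 had 90 and 240, or 169 against 329 CPM, 1.95-fold higher (1.53 to 2.52). These 3 genes also had higher values in neurons than in glia within each library, for Pgk1 and Tpi1 through the immature neurons. Aldoc had 852 and 592, or 1595 against 812 CPM, and was 1.96-fold higher in fresh cells (1.77 to 2.19). The part of the mix of cells in the differences of these 4 genes was not tested.

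Eno2 and Pgk1 were the 2 genes called higher in MeOH-fixed cells, of 9 with the minimum, beside 10.1% of 5099 genes, and 0 were called lower beside 5.47%. Averaged over the identities with equal weight, no gene of the 10 differed by 2-fold: the log2 ratio was 0.58 for Eno2, 0.72 for Pgk1 and −0.10 for Aldoc. This average takes in the mature neurons, whose 2 fresh cells lacked the neuronal markers. For Eno2 these cells had 0 UMIs, against 548 CPM in MeOH-fixed mature neurons, and their part in the average was not tested.

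Within neurons, within glia and within astrocytes and RGLs, no gene was called. In neurons 8 genes had the minimum and 0 were called in either direction, beside 11.2% of 2068 genes higher and 2.66% lower in MeOH-fixed cells. In immature neurons alone Pgk1 was called higher, with 170 UMIs in MeOH-fixed and 25 in fresh cells, a log2 ratio of 1.11 (0.50 to 1.78), beside 8.53% of 1676 genes, and 0 of 8 genes were called lower, beside 3.76%. Mature neurons were not read on their own between the libraries, since the 2 fresh cells lacked the neuronal markers. In glia it was 0 of 7, beside 11.3% higher and 8.76% lower of 1519 genes, and in astrocytes and RGLs 0 of 5, beside 6.42% and 3.35% of 358 genes. Aldoa, the best counted gene in neurons, had a log2 ratio of MeOH-fixed over fresh of −0.07 (−0.32 to 0.19) in neurons and 0.18 (−0.22 to 0.59) in glia. Eno2 in neurons was at −0.16 (−0.53 to 0.24) and Pkm at 0.07 (−0.27 to 0.43).

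Some intervals within a class nevertheless lay off 0. Hk1 in neurons was at −0.82 (−1.40 to −0.22), and Pgk1 was at 0.98 (0.38 to 1.65) in neurons and 0.96 (0.27 to 1.69) in glia. Tpi1 in neurons was at 0.58 (0.02 to 1.18). Aldoc in glia was at −0.60 (−0.75 to −0.44), whereas within astrocytes and RGLs it was at −0.19 (−0.35 to −0.03), and these cells gave 109572 of 230635 glial UMIs in the fresh library but 80722 of 232771 in the other. The median over all genes was 0.21 in neurons and 0.14 in glia.

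**Figure D5:**
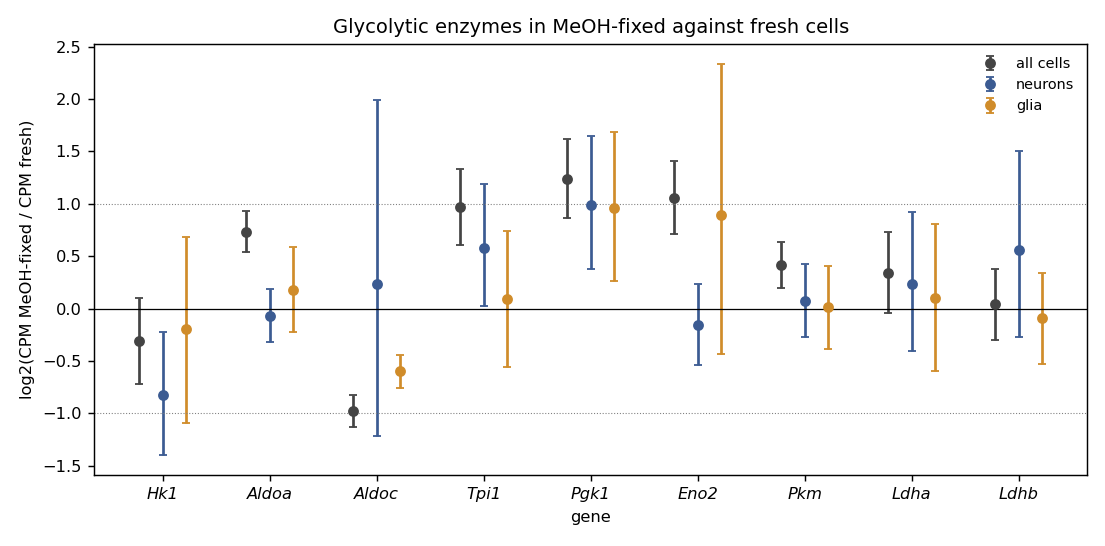
Log2 ratio of CPM in MeOH-fixed over fresh cells for the 9 genes other than Eno1, over all cells (grey), in neurons (blue) and in glia (orange), with exact conditional intervals as bars and dotted lines at 2-fold. Eno2 lies at 1.06 over all cells and at −0.16 within neurons, and Pgk1 lies above 0 in all 3 groups.

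Within astrocytes and RGLs and within immature neurons, the aldolase shares of the 2 libraries lay close together. Aldoc made up 92.2% (90.3 to 93.9) of the aldolase UMIs of fresh and 90.7% (88.1 to 93.0) of MeOH-fixed astrocytes and RGLs. In immature neurons it was 2.31% (0.633 to 5.81) and 2.10% (1.05 to 3.73). Other identities had few UMIs and shares further apart, such as Ldhb in microglia, with 23 of 27 UMIs in fresh (66.3% to 95.8%) and 6 of 10 in MeOH-fixed cells (26.2% to 87.8%). In OPCs it was 45.5% of 11 UMIs and 28.6% of 7. The intervals of the 2 libraries overlapped for every identity with UMIs of a pair in both, and differences smaller than the intervals were not detectable at this depth.

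The other genes of glucose use followed the split in part. Of 68 genes listed, 61 were in the counts, and 9 had the minimum between fresh neurons and glia, of which 3 were higher in neurons and 1 was lower, where 26.4% and 28.0% of all genes with the minimum were. In the MeOH-fixed library 22 had it, with 12 higher and 4 lower, where 35.7% and 14.9% of all genes were, and their median log2 ratio was 1.07 beside 0.56 over all genes. Among the other glycolytic enzymes, Gpi1, which isomerises glucose 6-phosphate, had a log2 ratio of 0.76 (−0.10 to 1.60) in fresh and 1.25 (0.73 to 1.82) in MeOH-fixed cells. Gapdh was at 0.75 (0.36 to 1.13) and 0.71 (0.45 to 0.98), Pgam1, a phosphoglycerate mutase, at 1.01 (0.32 to 1.70) and 0.58 (0.20 to 0.98), and Pfkm, the muscle-type phosphofructokinase, at −0.42 (−1.42 to 0.48) and −0.52 (−1.13 to 0.09).

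The shuttles that carry the electrons of glycolysis into mitochondria had 8 genes with the minimum in MeOH-fixed cells. Of these 7 were higher in neurons and 0 were lower, with a median log2 ratio of 1.35, beside 35.7% higher and a median of 0.56 over all genes. The cytosolic aspartate aminotransferase Got1 was at 2.53 (1.76 to 3.40), the aspartate-glutamate carrier Slc25a12 at 1.94 (1.22 to 2.74) and the malate dehydrogenase Mdh1 at 1.33 (0.90 to 1.78). In fresh cells 2 genes of the group had the minimum, Mdh1 at 1.65 (1.06 to 2.25) and the glycerol phosphate dehydrogenase Gpd2 at 1.52 (0.70 to 2.37). Under the minimum, the mitochondrial carrier gene Slc25a11 had 3 UMIs in fresh neurons and 20 in glia, a log2 ratio of −1.65 (−4.04 to 0.11). Of the genes of pyruvate entry 3 of 6 were higher in MeOH-fixed neurons (Mpc2, Pdha1 and Pdhb), beside 35.7% of all genes. The 1 lower gene, beside 14.9%, was Pdk2 at −1.07 (−1.80 to −0.35), a kinase that switches pyruvate dehydrogenase off. In fresh cells only Mpc1 of this group had the minimum, and it was not called, at −0.42 (−1.45 to 0.53).

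Of the 7 listed transporters of glucose and lactate, 0 had the minimum between fresh neurons and glia. In MeOH-fixed cells 1 had it, Slc2a3. Slc2a3, the neuronal glucose transporter, had 11 UMIs in fresh neurons and 5 in glia, and 60 and 2 in MeOH-fixed cells, where the log2 ratio was 4.17 (2.26 to 7.25). Slc2a1, the transporter of the blood-brain barrier and of glia, had 1031 CPM in fresh and 1895 CPM in MeOH-fixed endothelial cells. It had 18.5 and 7.74 CPM in neurons and 78.0 and 116 CPM in glia, under the minimum in both libraries. Of 8 glycogen genes in the counts, 1 had the minimum in the fresh and 2 in the MeOH-fixed library. These were lower in neurons, beside 28.0% of all genes with the minimum in fresh and 14.9% in MeOH-fixed cells. Pygb, a glycogen phosphorylase, was at −2.06 (−3.43 to −0.93) and −1.29 (−2.01 to −0.59). Ugp2, which makes the glucose donor of glycogen, had 8 UMIs in MeOH-fixed neurons and 64 in glia. So few genes do not describe the glycogen genes as a group. Taldo1 of the pentose phosphate pathway was at −0.88 (−1.98 to 0.10) in fresh and −1.52 (−2.01 to −1.04) in MeOH-fixed cells.

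Between the libraries, 6 of the 34 listed genes with the minimum over all cells were higher in MeOH-fixed cells and 1 was lower, beside 10.1% and 5.47% of all genes. Pygm, the muscle-type glycogen phosphorylase, was the lower one, with 54 UMIs in the fresh and 10 in the MeOH-fixed library, or 101 against 13.7 CPM. Astrocytes and RGLs held 29 of these 54 and 4 of these 10 UMIs, a log2 ratio of −2.42 (−4.39 to −0.91) within them.

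The genes whose pattern over 14 groups of 1 identity in 1 library was most like that of each isoform were sought among 1022 genes, as Pearson's r of log2(CPM + 10). The groups share 2 libraries and differ in depth, and r is given as a description. Aldoc was followed by the glutamate dehydrogenase gene Glud1 (0.930), the apolipoprotein gene Apoe (0.923) and the glutamate transporter gene Slc1a3 (0.921). Ldhb was followed by the water channel gene Aqp4 (0.770), Psap (0.729) and Sox9 (0.722), 2 of them astrocyte markers. Aldoa was nearest to Arf3 (0.877), Camk2n1 (0.871) and Abr (0.851), and Eno2 to the calcium pump gene Atp2b2 (0.883), Fam163b (0.878) and Cbx6 (0.875). The nearest to Ldha was another of the 10 genes, Pkm, at 0.747, followed by Ptms (0.626) and Atp5c1 (0.622). Eno1 had too few UMIs for this.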

How the data were processed

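Single cells were profiled by SORT-seq, in which sorted cells are tagged in the wells of a plate and read from the 3′ end of polyadenylated RNA. The authors aligned to GRCm38 by STAR and left out reads with several equally good places. They deposited expected counts: UMIs without duplicates, adjusted for collisions among 4096 possible UMIs. The annotation version and the use of strand in counting are not given in the sources used here. Barcodes were filtered by the authors, and identities were named from clusters of integrated data (Seurat 4.1.0 and R 4.2.0 per the labels). The authors also deposited the percent of mitochondrial counts of each cell, which was used in 1 alternative only.

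The adjustment was inverted to whole UMIs (largest distance from a whole number 3.64e-12; it had raised counts by 1.15%). UMIs were summed over the cells of a class or identity and divided by the total. Cells held 971 to 31563 UMIs in the fresh and 1000 to 34333 in the MeOH-fixed library. Levels have exact Poisson, shares Clopper-Pearson and ratios conditional binomial intervals. With 1 library per condition no test, p-value or SE was computed. A gene was called at 2-fold or more with at least 50 UMIs over both groups. Where a group had 0 UMIs, 3 counts were taken as the limit. Doublets were left to the authors' gates and upper limit of counts, and no doublet caller was run. The libraries shared 0 barcode names, and 0 columns of the count tables were left unmapped.

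The 10 genes, the lists of other genes and the alternatives were chosen with earlier results of these data known. The named genes are the 10, other listed genes with at least 50 UMIs over both libraries, starting from the largest ratios, the 3 genes most like each isoform of the 3 pairs, and markers. For likeness, genes with at least 200 UMIs and groups of at least 5 cells were used. Of the 68 listed genes of glucose use 7 were not among the counted rows. Coordinates come from GENCODE vM21 and promoters from RefSeq (GRCm38.p6), in which all 10 genes matched. The summing, thinning and intervals were tested on simulated counts. Scripts ran in Python 3.11.15 with scipy 1.17.1, numpy 2.4.6 and pandas 2.3.3, and figures were drawn with matplotlib 3.10.9.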

Additional observations from a re-analysis of the deposited data

Results flagged for a closer look

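UMIs of the 10 genes were also counted in barcodes outside the comparisons, those that had failed the authors' filter. There were 497 such UMIs in 320 fresh barcodes and 302 in 252 MeOH-fixed barcodes, a level of 3546 CPM (3241 to 3872) and 3610 CPM (3214 to 4041), against 3797 and 4155 CPM in the filtered cells. These barcodes include the wells left without a cell, which the labels do not point out. Aldoc was the most counted gene of the failing MeOH-fixed barcodes, with 96 UMIs, and Aldoa that of the failing fresh barcodes, with 133. Eno1 had 0 UMIs in them.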

How the results depend on the processing

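No paired analysis was possible because each condition has 1 library. Across 40 other settings, no value of Eno1 against Eno2 was recomputed, since Eno1 had 2 UMIs. Of the counts of the 10 genes called between neurons and glia, those in the fresh library (3 higher and 2 lower in neurons) were 0 and 1 with cells thinned to 800 UMIs, 1 higher without the richest cell of each class (Aldoa, while Hk1 at 1.74 and Eno2 at 4.93 on the log2 scale then had under 50 UMIs), 1 and 1 with a minimum of 200 UMIs, and 7 higher at 1.5-fold. In the MeOH-fixed library (5 higher, 2 lower) the higher genes numbered 2 with every cell at the same weight, 1 with thinned cells, 3 with nIPCs and neuroblasts counted as neurons and 2 against astrocytes and RGLs only, and the lower genes numbered 1 with cells of at most 25% mitochondrial counts, with thinned cells, with immature neurons only, with glial identities at equal weight and with the minimum of 200. Thinning and stricter minimums leave fewer UMIs per gene. The counts at other settings, here and below, are not set beside the shares of all genes at those settings. They are therefore not read as results about the 10 genes.

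The Aldoc share difference between neurons and glia (−86.7 percentage points in fresh, −79.8 in MeOH-fixed cells) was −35.0 and −55.2 with every cell at the same weight, −43.2 and −49.8 with glial identities at equal weight, −76.3 in thinned fresh cells, and −87.2 against MeOH-fixed astrocytes and RGLs only. The Ldhb share difference (−37.2 and −29.0) was −77.8 and −45.5 in thinned cells. The log2 ratio of Ldhb in neurons over glia of the fresh library, −1.67, was 0.10 in thinned cells. The 7 fresh neurons then held 0 UMIs of Ldhb, so that 0.10 is an upper limit from 3 counts and not a measured change of direction.

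Between the libraries, the 2 genes higher and 0 lower in MeOH-fixed cells became 0 higher with every cell at the same weight, with thinned cells and with identities at equal weight, 1 higher with all barcodes of each plate, 4 higher without the richest cells, and 4 higher and 1 lower at 1.5-fold. With the median ratio over genes set to 1 there was 1 higher and 1 lower, and without mitochondrial genes 1 lower, which is Aldoc at −1.01. In neurons (0 and 0) there was 1 higher with the deposited expected counts and with cells of at most 25% mitochondrial counts, 2 higher and 1 lower with every cell at the same weight, 1 and 1 at 1.5-fold, 1 lower with the median ratio set to 1, and 2 higher without the richest cells. In glia there was 1 and 1 at 1.5-fold.

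The listed genes of glucose use numbered 11 higher and 15 lower in fresh neurons, 16 lower in MeOH-fixed neurons and 10 lower in MeOH-fixed cells with no minimum of UMIs, against 3, 1, 4 and 1 with it. Without a minimum, genes of very few UMIs are counted too, and these numbers are not set beside the shares of all genes. Of the 15 genes most like an isoform, 5 were shared when all groups of cells were used. Of 174 recomputed values that answer a comparison, the remaining 126 stayed within 1.5 times for a count and within the counting interval for a share.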
